A study of Mus musculus with 6 samples.

Results

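The cells described here are 94 cells of mouse hypothalamus that carried transcripts of Ghrh, Th or Slc6a3, out of 13994 cell barcodes in the deposited table. A cell was taken when it had at least 300 genes, at most 20% of its transcripts from mitochondrial genes, at least 1 unique molecular identifier (UMI, a count of 1 captured transcript) from the neuronal genes Snap25, Syt1, Snhg11 and Meg3, at least 3 UMIs summed over Ghrh, Th and Slc6a3, and no more than 4 UMIs each of Pomc, Agrp and Tac2. Of the barcodes, 9449 met the gene and mitochondrial limits and 5714 of those held a neuronal UMI. The limit on Pomc, Agrp and Tac2 removed no cell. The cells were chosen by their counts of Ghrh, Th, Slc6a3, Pomc, Agrp, Tac2 and the neuronal genes, so the levels of these genes are given as a description and were not tested between these cells and others.

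The study profiled hypothalamus of C57BL/6J mice aged 8 weeks by Drop-seq, a droplet method that reads the 3' end of transcripts of single cells. There were 3 libraries of wild-type tissue (WT1, WT2 and WT3) and 3 of tissue labelled IDOL KO (KO1, KO2 and KO3). IDOL is the product of Mylip, a ubiquitin ligase that marks lipoprotein receptors such as Vldlr and Lrp8 for degradation. The labels do not say how the allele was made, in which cells it acts, or whether a library is a separate animal, so p-values measure the spread between libraries. The design text has 2 days of Drop-seq with both genotypes on each day, but no label ties a library to a day, so day could not enter a fit.

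Growth hormone-releasing hormone (GHRH) neurons of the arcuate nucleus send the peptide to the pituitary, where it drives growth hormone release. Tuberoinfundibular dopamine neurons of the same region make dopamine with tyrosine hydroxylase (Th) and dopa decarboxylase (Ddc), load it into vesicles with the vesicular monoamine transporter (Slc18a2), take it up again with the dopamine transporter (Slc6a3) and hold back prolactin release, with the prolactin receptor (Prlr) as their feedback sensor. Some GHRH neurons also carry Th, and galanin (Gal) is a common co-transmitter of both kinds. Gsx1 is a homeodomain factor needed for GHRH neurons to form.

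The promoters of 3 of these genes, Ghrh, Th and Slc18a2, are shown. They are the ones whose windows held a match to a sequence searched for below. In the GRCm38 annotation, Ghrh lies on chromosome 2 from 157329497 to 157347506 on the minus strand, Th on chromosome 7 from 142892752 to 142931128 on the minus strand, Slc6a3 on chromosome 13 from 73536747 to 73578672 on the plus strand, Gal on chromosome 19 from 3409915 to 3414544 on the minus strand and Slc18a2 on chromosome 19 from 59260896 to 59296012 on the plus strand. Each sequence runs 5′ to 3′ on the gene's own strand, from 250 bases before to 50 bases after a start site in RefSeq (GRCm38.p6). Capitals mark a cyclic AMP response element (TGACGTCA) or a homeodomain core (TAATTA), both searched as exact letters; each reads the same on both strands.
Ghrh promoter, chr2:157337377-157337676, minus strand: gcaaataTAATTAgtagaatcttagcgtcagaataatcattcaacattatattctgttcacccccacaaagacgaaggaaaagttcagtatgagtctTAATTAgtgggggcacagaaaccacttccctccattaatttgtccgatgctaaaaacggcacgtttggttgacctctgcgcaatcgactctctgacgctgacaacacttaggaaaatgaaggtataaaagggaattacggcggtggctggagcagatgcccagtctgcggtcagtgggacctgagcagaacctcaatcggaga
Th promoter, chr7:142899946-142900245, minus strand: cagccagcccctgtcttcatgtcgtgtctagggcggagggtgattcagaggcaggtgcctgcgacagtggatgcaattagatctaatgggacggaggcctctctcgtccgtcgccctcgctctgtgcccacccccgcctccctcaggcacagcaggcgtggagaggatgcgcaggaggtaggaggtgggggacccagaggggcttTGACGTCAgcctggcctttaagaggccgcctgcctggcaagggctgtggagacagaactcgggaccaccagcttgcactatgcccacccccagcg
Slc18a2 promoter, chr19:59260628-59260927, plus strand: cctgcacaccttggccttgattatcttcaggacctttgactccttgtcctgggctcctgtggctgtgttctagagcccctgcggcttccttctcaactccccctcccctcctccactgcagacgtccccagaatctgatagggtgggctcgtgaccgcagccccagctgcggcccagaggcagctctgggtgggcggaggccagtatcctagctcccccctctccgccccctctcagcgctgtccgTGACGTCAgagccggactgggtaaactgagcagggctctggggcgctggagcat
The cyclic AMP response element began 45 bases before the start in Th and 4 bases before the start in Slc18a2, and 1.79% of 32851 mouse promoter windows of this length held one. The homeodomain core began 243 and 153 bases before this Ghrh start, and 5.29% of windows held one. Neither word was in the windows of Ddc, Gal, Gsx1 or Slc6a3, or at the other Ghrh start. A match describes letters only, and no binding was measured.

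Library totals ran from 1670993 to 4068886 UMIs. The 94 cells fell in every library, with 24 in WT1, 15 in WT2, 4 in WT3, 18 in KO1, 22 in KO2 and 11 in KO3. No cell among them shared its barcode with another library, although 6 barcodes in the whole table did. The targeted gene matched the labels over all barcodes: Mylip had 76, 35 and 49 UMIs over WT1 to WT3, and 2, 0 and 0 over KO1 to KO3. Among the 94 cells, Mylip had 2 UMIs in WT1 and 0 in each other library, too few to check the genotype within them. The doublet caller Scrublet marked 116 cells (1.23% of those passing), 3 of them among the 94.

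The data went against a single neuronal label for these cells, so they are called the 94 Ghrh/Th cells. Sorted by leading genes, they fell into 6 kinds: 32 led by Ghrh, 8 led by Th with Gal, 4 led by Th with Sst, 32 other cells led by Th or Slc6a3, 13 rich in Avp and Oxt, and 5 that carried ependymal genes. Ghrh-led means more Ghrh UMIs than Th and Slc6a3 UMIs together. The cut-offs for the other kinds were set after the values were seen (at least 10 Sst UMIs, at least 7 Gal UMIs, at least 100 Avp and Oxt UMIs, or more UMIs from a tanycyte and ependymal list than from a pan-neuronal list), so differences between kinds in those genes are descriptions.

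The 5 ependymal-marked cells stood apart from the rest in neuronal share and leading genes, and most were deeper than any other cell. They held 16718 to 88227 UMIs each, against 706 to 18628 in the other 89, and 0.018% to 0.072% of their UMIs came from the neuronal genes of the rule, against 0.684% or more in the others. Their Ghrh counts were low, between 3 and 7 UMIs a cell, with 0 UMIs of Th and Slc6a3. Genes of motile cilia and the ventricle lining filled them, with 934 UMIs of Ccdc153, 706 of Tmem212, 1064 of Rarres2 and 145 of Foxj1, and Hdc, the histamine-making enzyme, had 148. All 5 came from KO libraries, 1 from KO1 and 4 from KO2, and they held 34.4% of all UMIs of the 94 cells (35.0% in KO1 and 72.8% in KO2).

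**Figure D1:**
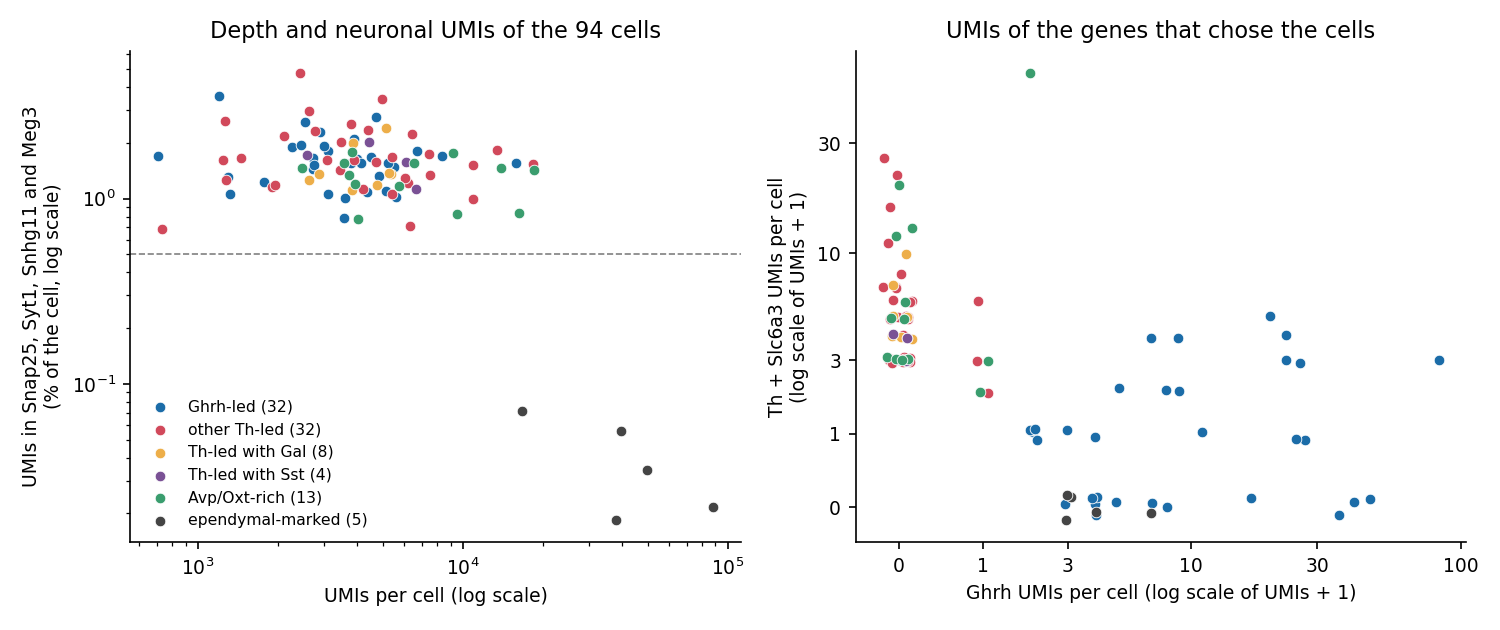
Each point is 1 of the 94 cells. Left, UMIs per cell against the percentage of UMIs in Snap25, Syt1, Snhg11 and Meg3, both on log scales, with the dashed line at 0.5%; right, Ghrh UMIs against Th and Slc6a3 UMIs per cell on log scales of UMIs + 1, with points shifted slightly to avoid overlap. The 5 ependymal-marked cells lie below the line and mostly to the right of the other cells, and Ghrh-led cells reach 83 Ghrh UMIs.

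The counts of each comparison below are therefore given for the 94 cells and for the 89 cells with at least 0.5% of UMIs in the neuronal genes. The second limit was chosen after seeing the data, was applied alike to the cells compared with, and removed exactly the 5 ependymal-marked cells from the 94. Values of single genes and of gene lists are over the 89 cells unless the 94 are named. Levels are given as CPM, the UMIs of a gene scaled to a total of 1000000 UMIs for the group of cells, and values over WT1 to WT3 or KO1 to KO3 are listed in that order.

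The 32 Ghrh-led cells carried a peptide and receptor profile with Gal at its head. Ghrh itself ranged from 2 to 83 UMIs a cell with a median of 7.5, and 473 UMIs in all (3711 CPM). Gal was detected in 30 of the 32 cells at 8826 CPM, with a median of 28 UMIs and at most 217 in a WT1 cell of 15917 UMIs that also had the most Ghrh. Cartpt, the precursor of the CART peptide, was found in 23 cells (3459.6 CPM) but 193 of its 441 UMIs were in 1 WT1 cell. Penk, the enkephalin precursor, was found in 18.

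Gsx1 was found in 15 Ghrh-led cells (19 UMIs, 149 CPM) and in no cell of any other kind. In the 57 cells led by Th or Slc6a3, Gsx1 had 0 of 314802 UMIs, so the Ghrh-led level was at least 15.6-fold higher, taking 3 UMIs over the group as the limit that a count of 0 allows. Every library had a Gsx1 UMI in its Ghrh-led cells (8, 1 and 1 UMIs over WT1 to WT3, and 5, 3 and 1 over KO1 to KO3). Isl1, a LIM homeodomain factor of arcuate neurons, was found in 21 Ghrh-led cells at 353 CPM.

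A few hormone and peptide receptors were read in single UMIs in the Ghrh-led cells. Ghr, the growth hormone receptor, was found in 11 of 32 cells (22 UMIs), the estrogen receptor Esr1 in 13 (16 UMIs), the somatostatin receptor Sstr2 in 6 (8 UMIs) and the ghrelin receptor Ghsr in 5 (6 UMIs). Among the 32 other Th-led cells the same genes were found in 1, 2, 0 and 2 cells. The sets had median depths of 3560 and 4045.5 UMIs a cell, so depth was similar.

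Th was present in 20 of the 32 Ghrh-led cells, with 42 UMIs and at most 5 in a cell. Ddc was found in 12, Slc18a2 in 4 (4 UMIs) and Slc6a3 in none. Th and Ddc occurred together in 9 cells, and Th, Ddc and Slc18a2 in 3. At least 1 of the GABA genes Gad1, Gad2 and Slc32a1 was found in 28, and the glutamate transporter gene Slc17a6 in 1.

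The 32 other Th-led cells carried the genes of dopamine handling. Th was found in 29 (144 UMIs, 900.1 CPM), Slc18a2 in 25 (96 UMIs, 600.0 CPM), Ddc in 23 (97 UMIs, 606 CPM) and Slc6a3 in 17 (56 UMIs, 350.02 CPM). Th with Ddc and Slc18a2 occurred in 21 cells, and all 4 genes in 14. Ghrh and Slc6a3 occurred together in 1 of the 89 cells that lacked ependymal genes. Prlr was found in 22 (106 UMIs, 663 CPM), and 19 cells had both Prlr and Slc18a2. The dopamine autoreceptor Drd2 had no UMI in any of the 94 cells, and Gch1, which makes the cofactor of Th, was found in 1 of the 32.

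Cartpt, Penk and Gal were found in fewer of these Th-led cells than of the Ghrh-led cells, though not absent. Nts, neurotensin, went the other way. It had at most 7 UMIs in a Ghrh-led cell and was found in more of these Th-led cells, with up to 24 UMIs. Cartpt was found in 14 cells (156 UMIs, of which 120 were in KO1) and Penk in 5 (28 UMIs, of which 17 were in 1 WT2 cell). Gal had 2 UMIs over 32 cells, against 1125 in the Ghrh-led cells, where a Gal cut-off had removed Gal-rich cells from the Th-led set by construction. Coch, cochlin, was found in 20 cells at 381 CPM, and in 4 Ghrh-led cells at 39.2. The transcription factor gene Six6 was found in 12 cells, against 4 of the Ghrh-led cells. Dlx1, a factor of GABA neurons, was in 21 and in 17 Ghrh-led cells, and a GABA gene was again found in 28 of 32.

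One KO3 cell of this kind mixed identities. It had 18339 UMIs, 3 of Slc6a3 and 0 of Th, with 328 UMIs from the pan-neuronal list and 75 from the ependymal list, and Scrublet did not mark it. It passes the 0.5% limit and stays among the 89 cells.

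The 8 Th-led cells with Gal shared genes with both kinds. They came from WT2 (2), KO1 (2) and KO2 (4), held 508 Gal UMIs (15119 CPM, above the Ghrh-led level) and had 0 Ghrh and 0 Slc6a3 UMIs. Dlx1 was found in all 8, Gad2 in 7, and Ddc, Isl1 and Prlr in 6 each. The 4 Th-led cells with Sst, 1 each from WT1, WT2, KO1 and KO2, held 375 Sst UMIs (34 to 182 a cell), had the factor Otp in all 4 and had no Ddc.

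The 13 Avp/Oxt-rich cells carried Th without the rest of the dopamine genes. Th was found in all 13 (137 UMIs), and the highest Th count of the 94 cells, 59 UMIs, was in a KO3 cell of this kind with 18628 UMIs and 1147 Avp UMIs. Ddc, Slc18a2, Slc6a3 and Prlr each had 0 UMIs in the 13. Avp, vasopressin, ran from 96 to 2625 UMIs a cell with a median of 696, and Pdyn and Pcsk1 were in all 13. Slc17a6 was found in 11 and no GABA gene in any. Another 61 cells with as many Avp and Oxt UMIs did not meet the Ghrh, Th and Slc6a3 rule, at a median depth of 5764 UMIs against 5725 in the 13.

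**Figure D2:**
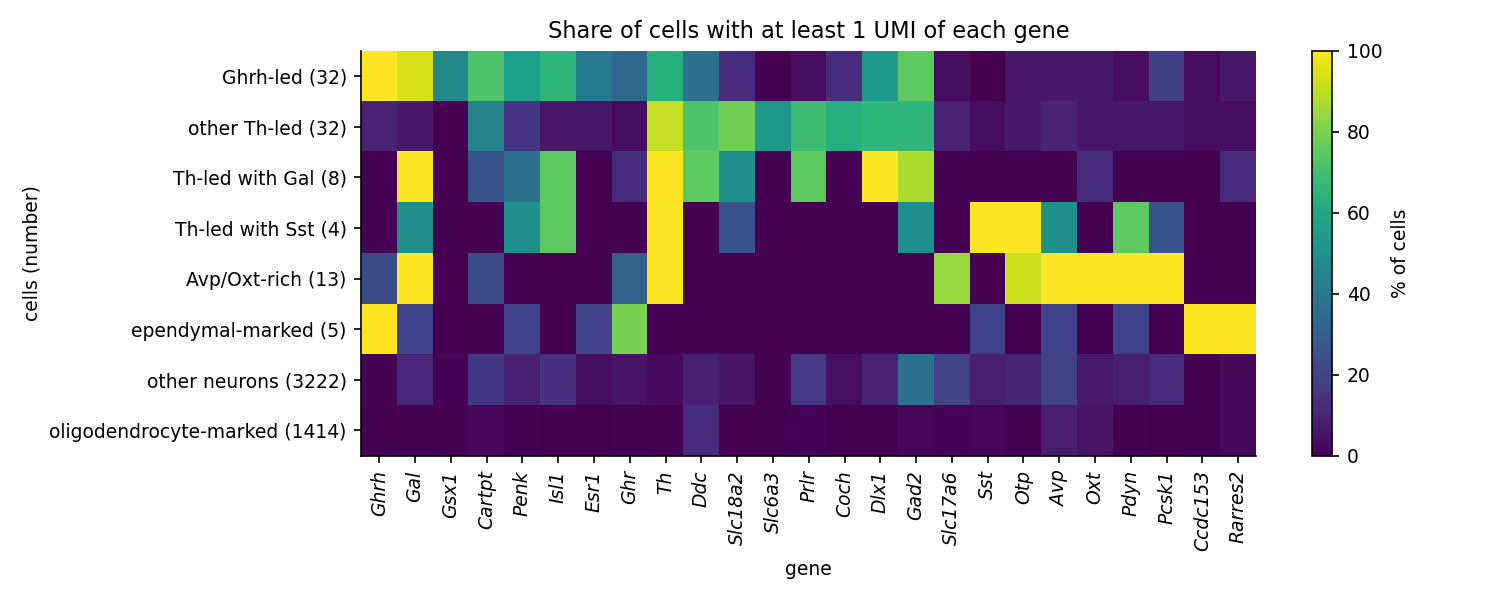
Colour gives the percentage of cells with at least 1 UMI of each gene (columns) in the 6 kinds of member cell, in 3222 other neurons and in 1414 oligodendrocyte-marked cells (rows, cell numbers in brackets). Gsx1 is seen in Ghrh-led cells, Slc6a3 in other Th-led cells, and Ccdc153 and Rarres2 in all 5 ependymal-marked cells; depths differ between rows.

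Free RNA in droplets gives single UMIs to cells that do not make a gene, and its level was read from 1414 cells marked by oligodendrocyte genes (median 1119 UMIs a cell, against 3931 in the 89). Among them, Ghrh was found in 1 cell (0.0707%), Slc6a3 in 1, Th in 4 (0.283%), Slc18a2 in 2 (0.141%), Gal in 8 (0.566%), Prlr in 13 (0.919%) and Gsx1 in none, where 0 of 1414 cells has an exact 95% upper limit of 0.261%. Ddc differed, with UMIs in 178 (12.6%, 118 CPM), more than in the 3222 other neurons (8.94%, 67.1 CPM). A Ddc UMI was thus no rarer in oligodendrocyte-marked cells than in other neurons. The Ddc level of the other Th-led cells, 606 CPM, was above both.

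Cells just inside and just outside the threshold of 3 UMIs had other genes in similar shares. With the 0.5% limit, 25 cells had exactly 3 UMIs of Ghrh, Th and Slc6a3 and 45 had exactly 2. Gal was found in 13 of the 25 and 23 of the 45, Ddc in 9 and 13, Slc18a2 in 8 and 10, and Prlr in 7 and 13. Median depths were 2898 and 3111 UMIs.

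The 94 cells were a small and variable share of neurons, and the share was not shown to differ by genotype. Neurons here are cells with at least 3 UMIs of the neuronal genes. The 94 made up 2.44%, 3.79% and 1.09% of neurons over WT1 to WT3, and 2.83%, 2.85% and 1.91% over KO1 to KO3. The means were 2.44% ± 1.35 in WT and 2.53% ± 0.533 in KO (SD, n = 3 each; exact permutation p = 1, two-sided, where 3 against 3 cannot go below 0.1). The KO libraries lay inside the WT range. Among neurons that also met the limit of 0.5% neuronal UMIs, the Ghrh-led share was 0.696% ± 0.331 in WT and 1.09% ± 0.418 in KO (SD, n = 3 each; exact permutation p = 0.3). With each cell thinned to 500 UMIs, the rule kept only 2, 2 and 1 cells over WT1 to WT3 and 3 in each KO library. The mean shares were then 0.364% of WT and 0.510% of KO neurons (exact permutation p = 0.3), and 365 shallower neurons were left out. In these sums a smaller number of cells and less RNA per cell cannot be told apart.

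**Figure D3:**
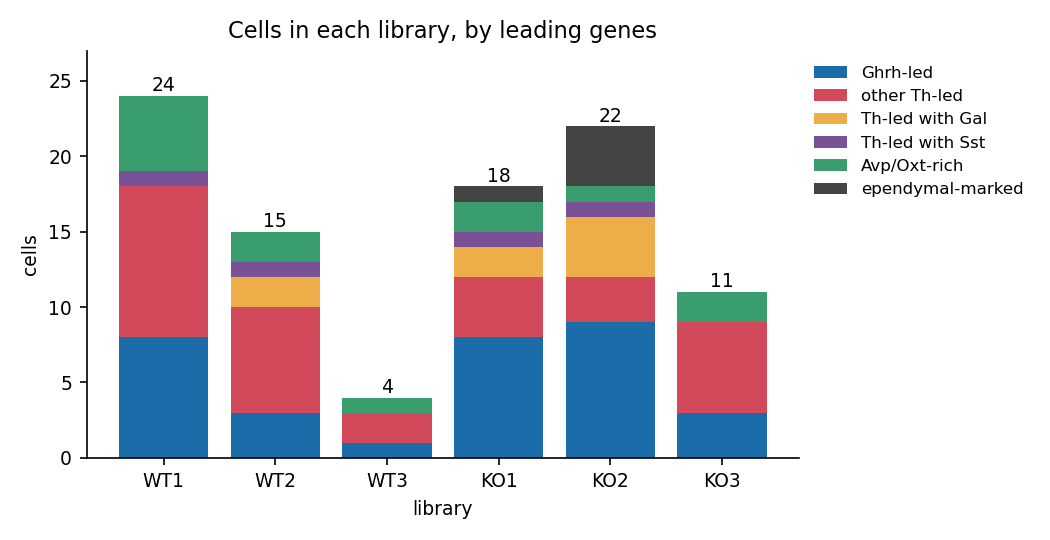
Bars give the number of member cells in each library, stacked by kind, with the total above each bar. Ghrh-led and other Th-led cells occur in all 6 libraries, the ependymal-marked cells in KO1 and KO2 only, and WT3 has 4 cells in all.

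Over all neurons, none of the 3 transcripts was shown to differ between genotypes. The log2 fold change, KO over WT, was 0.10 (SE 0.39) for Ghrh, 0.37 (SE 0.41) for Th and 0.03 (SE 0.70) for Slc6a3, with an adjusted p of 1.00 for each (edgeR quasi-likelihood test with Benjamini-Hochberg adjustment over 11470 genes). In that fit edgeR called 0 genes, 280 (2.44%) had an unadjusted p under 0.05, and DESeq2 called 4 (mt-Nd3, Gm8773, Tac1 and Nts).

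Against other neurons of the same libraries, the cells had more Gal and Coch and less Vip over both the 94 and the 89 cells, and more Ddc, Dlx1 and Slc18a2 and less Slc17a6 over the 89 cells only. Each library gave 1 summed profile for the cells and 1 for the other neurons, with library as a block in edgeR's quasi-likelihood test. Over the 94 cells, 32 of 8279 genes passed an adjusted p of 0.05 (0.387%), with 5 higher and 27 lower. Over the 89 cells and 3222 other neurons, 215 of 6939 passed (3.1%), with 91 higher (1.31%) and 124 lower (1.79%), and DESeq2 called 97, of which 94 were shared. The 215 became 133 without WT1 and 135 without KO1, and the 32 became 53 without KO2 and 16 to 21 without any other library. The rule genes were taken out of these counts. The cells compared were deeper than the others (median 3931 against 1364 UMIs), and with both sides limited to cells of at least 1000 UMIs the 94-cell count was 30. The fit over the 89 cells was not repeated under that limit. How far its 215 calls and its values of single genes follow depth was not tested.

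Gal was higher in the cells of every library. Its level in the 89 cells was 4198, 4108 and 1897 CPM over WT1 to WT3 and 4071, 8742 and 1229 over KO1 to KO3, against 386, 499 and 223, and 145, 739 and 339.7 in other neurons. The smallest value in the cells, in KO3, was above the largest in other neurons, in KO2. The log2 fold change was 3.32 (SE 0.15, edgeR adjusted p = 8.15e-62) over the 89 cells and 3.25 (SE 0.30, edgeR adjusted p = 0.000169) over the 94.

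Of 9 measured genes for dopamine synthesis, storage and breakdown that were not in the rule, 2 rose and 1 fell over the 89 cells. The median of the list was -0.03 on the log2 scale, against -0.04 over all genes tested. Ddc was 304, 361 and 0 CPM over WT1 to WT3 and 355, 236 and 317 over KO1 to KO3, against 47.8 to 80.1 in other neurons. All libraries were above other neurons except WT3, where its 4 cells had no Ddc UMI. The log2 fold change of Ddc was 2.11 (SE 0.20) and that of Slc18a2 was 1.35 (SE 0.21), both past the edgeR threshold in each of 6 fits that left out 1 library. Maob, monoamine oxidase B, fell by 1.32 on the log2 scale (edgeR adjusted p = 0.00472, DESeq2 adjusted p = 0.0668). With all 94 cells Ddc was 1.85, Slc18a2 1.26 and Maob -0.25, and none of the 9 genes passed in edgeR.

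The list counts that follow are over the 89 cells, where 1.31% of all genes tested rose and 1.79% fell. In the list for the growth hormone axis, 1 of 5 tested members rose and none fell, and over the 94 cells none of 8 passed in either direction. Prlr had a log2 fold change of 0.78 (SE 0.19, edgeR adjusted p = 0.00405), which did not pass in DESeq2 (adjusted p = 0.164) or without KO1. Ghr, at 0.71 (SE 0.38, edgeR adjusted p = 0.400), did not pass.

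Of 17 tested transcription factors, 1 rose and 5 fell, and over the 94 cells none of 24 rose and 2 fell. Dlx1 was 179, 321 and 43.1 CPM over WT1 to WT3 and 246, 249 and 139 over KO1 to KO3, against 66.5 to 104 in other neurons, with a log2 fold change of 1.42 (SE 0.22, edgeR adjusted p = 5.42e-08). WT3 was the only library below its other neurons. With all 94 cells Dlx1 was 1.25 (edgeR adjusted p = 0.155) and did not pass. Zfhx3, a factor of suprachiasmatic and many other neurons, fell by 2.78 (SE 0.34) in every library, and Six3, Zfhx4, Nfix and Tshz2 fell by 0.88 to 2.33.

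Among 16 other neuropeptide genes, Gal, Avp, Oxt, Pdyn and Penk rose and 3 fell, and over the 94 cells 1 of 17 rose (Gal) and 2 fell (Vip and Npy). Vip had 0 of 442273 UMIs in the 89 cells and 1481 UMIs in other neurons, a level at least 31.9-fold higher in the others with 3 UMIs over the group as the limit. Npy, neuropeptide Y, fell by 4.82 (SE 0.27) and Tac1, the substance P precursor, by 0.95 (SE 0.23). Penk, at 0.94 (SE 0.21, edgeR adjusted p = 0.000803), was lost without WT2, and Oxt, at 2.42 (SE 0.32), was lost without WT3 and in DESeq2 (adjusted p = 0.323).

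The Avp, Oxt and Pdyn differences came with the 13 Avp/Oxt-rich cells. With cells of at least 100 Avp and Oxt UMIs left out on both sides, 76 cells stayed and 131 of 6670 genes passed (1.96%), 107 of them among the 215. Avp and Oxt set that limit, so their values under it (-4.10 and -1.47) follow from the choice of cells and are no test. Pdyn turned from 1.97 to -1.42 and Pcsk1, a proprotein convertase gene, from 1.32 to -1.38, and neither passed there. Gal stayed at 3.44, Coch at 3.06 (2.77 over the 89 cells), Ddc at 2.35 and Dlx1 at 1.65, and Slc10a4, a vesicular transporter relative, had the highest value of those named at 5.10 (SE 0.59).

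For fast transmitters, no GABA gene was shown to differ from other neurons, and the glutamate transporter gene was lower over the 89 cells. Gad1 was -0.06 (SE 0.18), Gad2 -0.01 (SE 0.14) and Slc32a1 0.09 (SE 0.22), none past the threshold. Slc17a6 was 124, 40.1 and 43.1 CPM over WT1 to WT3 and 41.0, 0 and 114 over KO1 to KO3, against 212 to 265 in other neurons. All 6 were below, and the fold change fell by 1.73 on the log2 scale (SE 0.25), or by 2.77 without the Avp/Oxt-rich cells. In the fit of the 94 cells Slc17a6 was -1.94 (SE 0.51, edgeR adjusted p = 0.222) and did not pass, and none of 8 genes of the list did.

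Immediate-early genes, which rise with neuronal activity or tissue dissociation, gave calls under 1 choice of cells only. In the 89 cells 3 of 10 tested fell (Fosb by 0.99, Fos by 0.51 and Btg2 by 0.80) and none rose, while over the 94 cells 0 of 12 passed and without the Avp/Oxt-rich cells 0 of 10. Of 5 oligodendrocyte genes tested, 2 fell and none rose. The summed oligodendrocyte list of 8 genes was 234.7 to 1709.9 CPM over the 6 libraries in the 89 cells and 912.6 to 2071.0 in other neurons. The highest value, in KO3, had 121 UMIs from the mixed KO3 cell described above, and in WT3 (1164 CPM) 12 UMIs came from 1 cell of 731 UMIs. How far this moved the other differences was not tested.

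The remaining gene groups moved little or in both directions over the 89 cells. Of 18 granins and peptide-processing genes, Pcsk1, Scg3 (0.76), Resp18 (0.56) and Pam (0.45) rose and Pcsk2 fell by 1.29, with a list median of 0.10. None of the 18 passed over the 94 cells, and without the Avp/Oxt-rich cells Scg3 rose (0.74), Pcsk2 fell by 1.22 and no other member passed (median -0.08). Of 14 hormone and peptide receptors tested, Prlr rose and none fell (median -0.26). Of 12 tested genes reported for arcuate Ghrh and Th neurons, a list that overlaps those above, 3 rose (Gal, Ddc and Prlr) and 1 fell (Nfix), and the median was 0.02. Among IDOL and its receptors, 3 were tested: Apoe, a receptor ligand made by glia, fell by 1.10, and Vldlr and Lrp8 did not pass. With all 94 cells, Gal was the only member of these 4 lists to pass.

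Markers of other cell types moved in both directions over the 89 cells. Of 6 oxytocin and vasopressin neuron markers, Avp and Oxt rose, and of 2 Tac2 and Kiss1 neuron markers tested, Pdyn rose. Neither list had a call over the 94 cells. Of 5 suprachiasmatic markers tested, Vip, Rgs16 and Syt10 fell and Avp rose. Of 5 histaminergic markers tested, Hdc and Maob fell and Slc18a2 rose. Of 3 AgRP and NPY neuron markers, Npy and Serpina3n fell, of 4 astrocyte markers Slc1a2 fell, and of 2 tanycyte and ependymal markers Col23a1 fell. None of 2 endothelial, 1 oligodendrocyte precursor or 6 pan-neuronal genes passed, and no microglial or pituitary marker passed the filter on low counts. With all 94 cells Vip, Rgs16, Npy and Col23a1 passed, and Syt10, Hdc, Maob, Slc18a2, Serpina3n and Slc1a2 did not.

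The 89 cells were also compared with 241 neurons rich in Pomc, Agrp or Tac2, genes of arcuate neurons. The position of the cells in the hypothalamus was not measured. In edgeR, 85 of 1765 genes passed (4.82%), 45 higher (2.55%) and 40 lower (2.27%) in the 89 cells. DESeq2 called 40, all shared, and edgeR called 40 without WT1 and 48 without KO3. Over the 94 cells, 21 of 2676 passed (0.785%), and without the Avp/Oxt-rich cells 64 of 1678 (3.81%), 46 of them shared. The levels of Gal were 171 to 1385 CPM in the Pomc, Agrp and Tac2 neurons, and Gal was higher in the 89 cells by 2.57 on the log2 scale (SE 0.23, edgeR adjusted p = 4.62e-09). Pkib, a protein kinase A inhibitor, was higher by 2.36 (SE 0.27) and Fstl5 by 1.82 (SE 0.28). Pkib fell below the filter on low counts in the other fits, and Fstl5 did not pass over the 94 cells (edgeR adjusted p = 0.0627). Lower genes were Npy at -7.48, Serpina3n at -3.73, the transcriptional coregulator Cited1 at -3.03, the insulin receptor substrate Irs4 at -2.23 and Cartpt at -1.25 (SE 0.22), which also passed over the 94 cells and without the Avp/Oxt-rich cells. Npy and Serpina3n were on the list of AgRP and NPY neuron markers, and Cartpt on the list for POMC neurons. The compared neurons were chosen by Pomc, Agrp or Tac2, so the values of Npy, Serpina3n and Cartpt are descriptions. Of 7 immediate-early genes tested, Jun, Fos, Btg2 and Fosb fell, by 0.72 to 1.20, while 0 of 8 passed over the 94 cells and 2 of 6 without the Avp/Oxt-rich cells (Jun and Fos). With no filter on low counts, Prlr in the 89 cells was -0.45 (SE 0.205, edgeR adjusted p = 0.498) and was not shown to differ from the Pomc, Agrp and Tac2 neurons. Median depths were 3931 and 3209 UMIs.

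Ghrh-led and Th-led cells differed from each other within libraries. Over the 89 cells (32 Ghrh-led, 57 Th-led), 39 of 648 genes passed (6.02%), 25 higher (3.86%) and 14 lower (2.16%) in the Ghrh-led cells, with 31 calls in DESeq2, all shared, and 24 without WT1 and 19 without KO2 in edgeR. Over the 94 cells, with the ependymal-marked cells counted as Ghrh-led, 4 of 807 passed (0.496%), all lower: Avp, Oxt, Eno2 and App.

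The peptide genes Gal, Cartpt and Penk were among the 25 genes higher in the Ghrh-led cells, of which 17 were ribosomal protein genes. Gal was 10185, 12142 and 13192 CPM in the Ghrh-led cells of WT1, WT2 and WT3 and 7698, 8694 and 4293 over KO1 to KO3, against 1309.9, 3159 and 149, and 1179, 8772 and 673 in Th-led cells. Only in KO2, which holds 4 of the Th-led cells with Gal, were the levels alike. The log2 fold change was 2.24 (edgeR adjusted p = 8.41e-06). Cartpt, at 2.81 (SE 0.45), was 3984 CPM against 112 in WT2, but 2340.3 against 2947 in KO1. Penk (2.09, SE 0.34), the follistatin-like gene Fstl5 (2.33, SE 0.33) and Asb4 (1.99, SE 0.34), a ubiquitin ligase adaptor of arcuate neurons, were higher in every library. Fstl5 was 361 to 965 CPM in the Ghrh-led cells and 0 to 157 in the Th-led cells.

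On the Th-led side, Avp and Oxt came first, followed by the calcium-binding protein genes Calb1 (-4.03, SE 0.47) and Vsnl1 (-1.78) and the imprinted gene Nnat (-1.38, SE 0.30). Ddc was lower in the Ghrh-led cells at -0.94 (SE 0.32, edgeR adjusted p = 0.0759) and did not pass. Without the Avp/Oxt-rich cells, 35 of 585 genes passed (5.98%) and 25 were shared with the 39. Gal was then 3.15, Cartpt 2.40, Penk 1.63, Fstl5 2.36, Vsnl1 -2.11 and Nnat -1.54, and Mt1, a metallothionein, was -2.58.

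Genes of ribosomal proteins were higher in the Ghrh-led cells as a group: all 45 tested had a positive log2 fold change and 17 passed, with a median of 0.71 against -0.03 over all genes tested. Rpl8 was 1655, 1707 and 1609 CPM in the Ghrh-led cells of WT1, WT2 and WT3 and 1848, 1973 and 1321 over KO1 to KO3, against 737, 1008 and 697, and 417, 804 and 838 in the Th-led cells. The Ghrh-led value was higher in all 6 libraries. The log2 fold change of Rpl8 was 1.08 (SE 0.21, edgeR adjusted p = 0.000809) and 0.75 (edgeR adjusted p = 0.393) with no filter on low counts. Ribosomal protein genes were not among the lists and were grouped after their values were seen.

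Many dopamine and receptor genes were too sparse for the filter on low counts, and the fit without it gives their values over the 89 cells. Gsx1 was higher in the Ghrh-led cells by 5.16 (edgeR adjusted p = 6.01e-05), Isl1 by 1.94 (0.0124) and Esr1 by 3.13 (0.0232). Slc18a2 was lower, at -3.45 (edgeR adjusted p = 7.94e-06), as were Prlr at -4.78 (1.33e-09), Coch at -2.41 (0.0236) and Nts, neurotensin, at -2.50 (0.0236). Ghr at 2.32 (0.0832) and Sstr2 at 3.84 (0.398) did not pass.

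**Figure D4:**
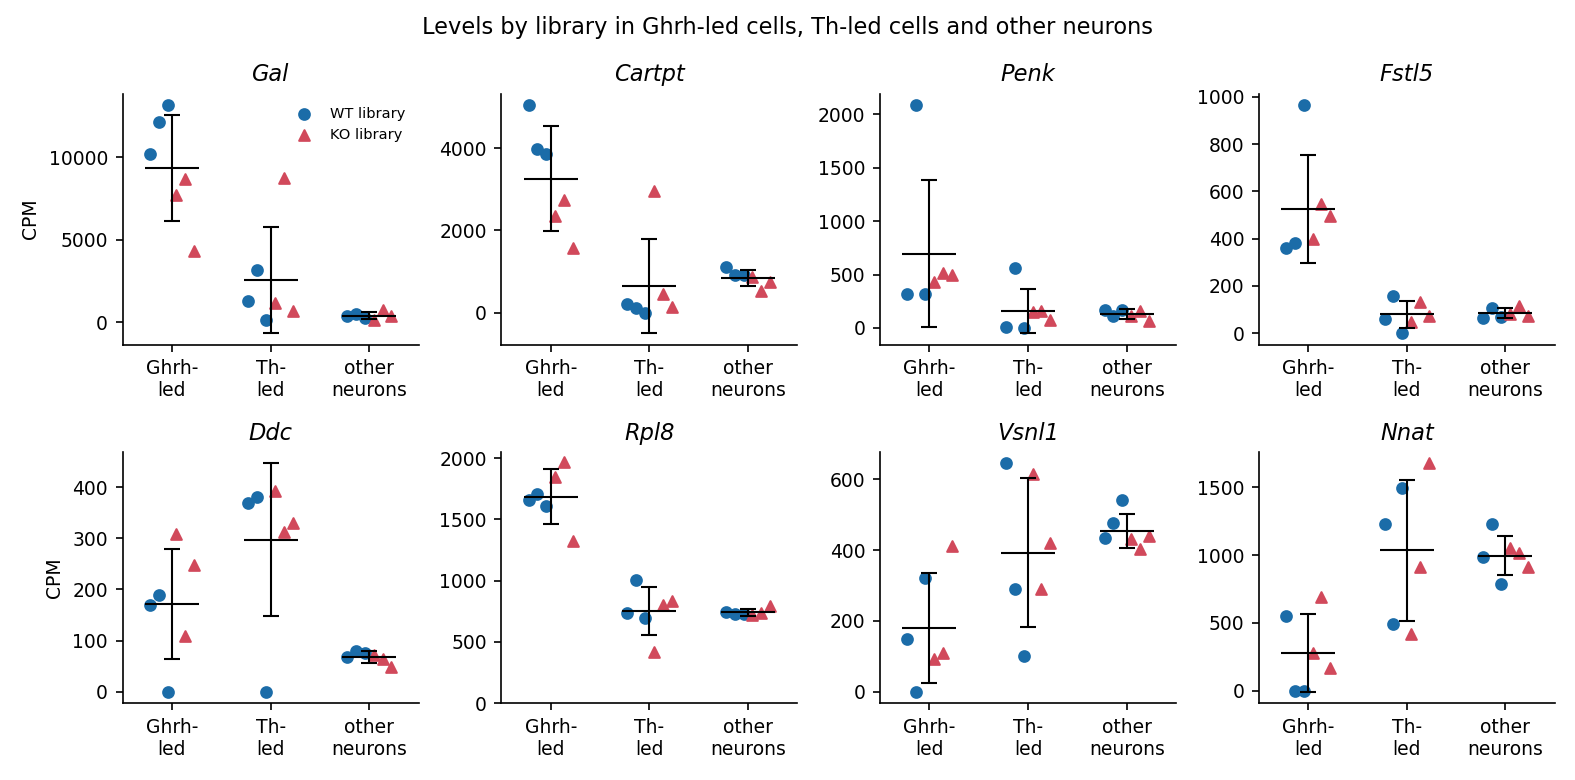
Points give CPM of 8 genes in each library (WT circles, KO triangles) for 32 Ghrh-led cells, 57 Th-led cells and 3222 other neurons; horizontal lines are means and bars are 1 SD over the 6 libraries. Rpl8 and Fstl5 separate Ghrh-led from Th-led cells in all libraries, and Gal in all but KO2; WT3 has 1 Ghrh-led cell.

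Between genotypes, the 94 cells differed in 37 of 2170 genes (1.71%), all higher in KO. The count was 0 without any 1 of the WT libraries and 477 without KO3, which held none of the ependymal-marked cells. The called genes included Ccdc153 (log2 fold change 8.38, SE 1.18), Dbi (6.64, SE 0.97), Rarres2 (10.8, SE 1.49), Pltp (9.69, SE 1.44) and the immediate-early genes Egr1 and Ier2. At least 61.6% of the UMIs of each called gene, with a median of 89.8%, came from the 5 ependymal-marked cells, all of which were in KO libraries. Over the 89 cells, 7 of the 37 were still tested and none passed. The summed tanycyte and ependymal list was 0 to 55.2 CPM in WT libraries and 963 to 9408 in KO libraries over the 94 cells, and 27.3 to 963 in KO libraries over the 89, where 75 of the KO3 UMIs were in the mixed cell described above. Ghrh UMIs in all 117 ependymal-marked cells of the table were 19.1, 25.8 and 28.9 CPM over WT1 to WT3 and 73.7, 68.6 and 12.3 over KO1 to KO3, and were not shown to differ by the exact permutation test (p = 0.4).

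Over the 89 cells, no gene passed between genotypes: edgeR and DESeq2 each called 0 of 1682 genes, and 81 (4.82%) had an unadjusted edgeR p under 0.05. KO and WT libraries did not overlap in 165 genes (9.81%). The log2 fold changes, KO over WT, were 0.42 (SE 0.44) for Gal, 0.19 (SE 0.42) for Ddc, 0.01 (SE 0.44) for Slc18a2, 0.74 (SE 0.45) for Prlr and 0.08 (SE 0.41) for Dlx1. The lipoprotein receptor genes Vldlr and Lrp8 were detected in 5 and 7 of the 32 Ghrh-led cells and fell below the filter on low counts. No member of any gene list passed.

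The genotype difference in the cells was also tested against that in other neurons, as an interaction in edgeR's quasi-likelihood test. It passed for 307 of 8279 genes over the 94 cells (3.71%) and for 7 of 6939 over the 89 (0.101%), among them Avp, Oxt and Trh, while DESeq2 called 0 over the 89.

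The smallest p-values on the lower side belonged to Avp (-1.84, SE 0.48), Pcsk1 (-1.45, SE 0.40) and Txndc9 (-1.59, SE 0.45), with edgeR adjusted p = 0.909 each, followed by Calb1 and Sdhb. Avp was 30460, 33923 and 89718 CPM over WT1 to WT3 and 8211, 12053 and 23432 over KO1 to KO3, without overlap, but rested on 8 WT and 5 KO Avp/Oxt-rich cells. On the higher side stood Zcchc11 (1.46, SE 0.46), Luc7l3, Baiap3 and Ensa (edgeR adjusted p = 0.953 each).

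Within the 32 Ghrh-led cells, 0 of 302 genes passed in edgeR or DESeq2, 11 (3.64%) had an unadjusted p under 0.05 and 34 did not overlap between genotypes (11.3%). Gal and Cartpt were among those 34, named after their values were seen: Cartpt was 5049.9, 3984 and 3861 CPM over WT1 to WT3 and 2340.3, 2739.6 and 1569 over KO1 to KO3, with a log2 fold change of -0.92 (SE 0.31, edgeR adjusted p = 0.997). Gal was -0.65 (SE 0.39) at the same adjusted p. WT3 contributed 1 cell, and most Cartpt UMIs of WT1 were in 1 cell. Whether Cartpt stays without overlap when that WT1 cell is left out was not tested. Within the 57 Th-led cells edgeR called 0 of 913 genes, 36 (3.94%) had an unadjusted p under 0.05, and DESeq2 called 1, Avp.

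**Figure D5:**
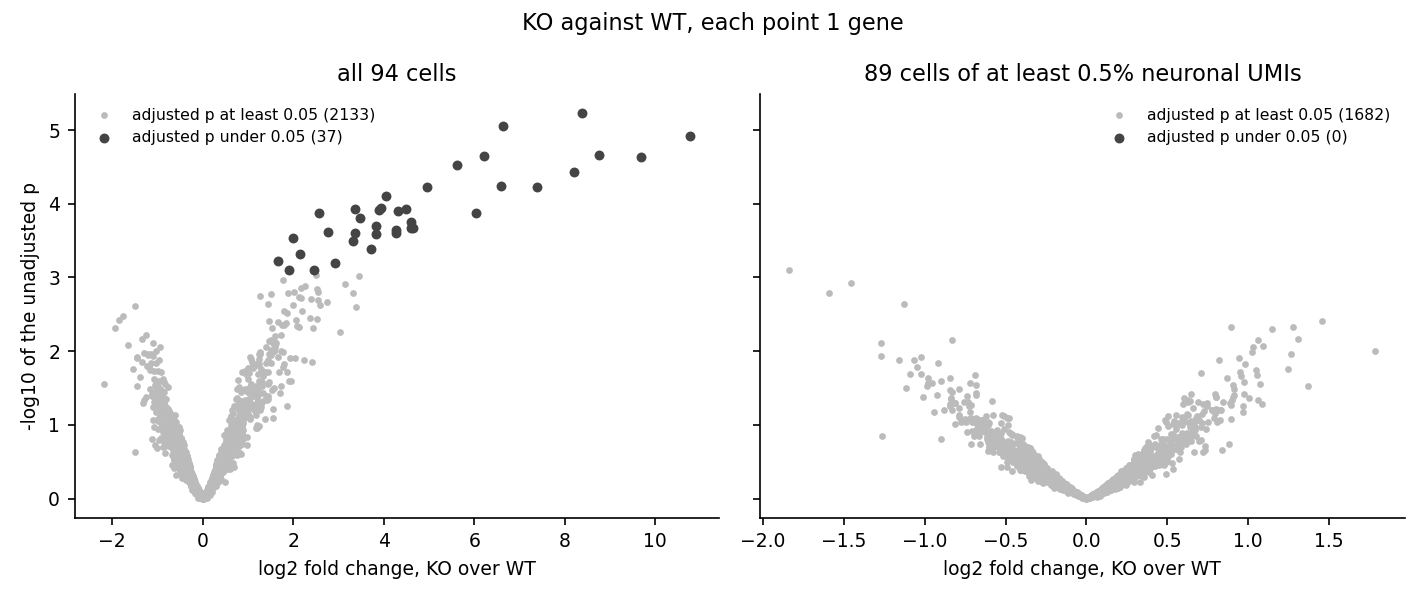
Each point is 1 gene, with the log2 fold change of KO over WT on the x axis and -log10 of the unadjusted edgeR p on the y axis, for all 94 cells (left, 2170 genes) and the 89 cells of at least 0.5% neuronal UMIs (right, 1682 genes; the x axes differ). Dark points passed an adjusted p of 0.05: 37 on the left, all higher in KO, and 0 on the right.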

How the data were processed

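Single-cell RNA-seq (Drop-seq) of mouse hypothalamus gave 6 libraries, 3 a genotype. The authors deposited 1 table of raw UMI counts for 18204 genes and 13994 barcodes, and each barcode's prefix names its library. The submitters' processing notes name STAR 2.5.0c, bcl2fastq and the builds GRCm38 and mm10; the counting tool and the authors' cell filters are not given in the sources used here. Libraries held 1670993 to 4068886 UMIs. Intervals and floors of 3 UMIs cover counting error only.

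Counts of the selected cells were summed per library and fitted with edgeR 4.0.16 (filterByExpr, TMM scaling, quasi-likelihood test, Benjamini-Hochberg adjusted p under 0.05) in R 4.3.3. Comparisons between sets of cells had library as a block, and genes of the selection rule were dropped after adjustment. Levels in the text (CPM) divide by a set's summed UMIs, with no TMM scaling. Alternatives were DESeq2 1.42.0, no filter on low counts, other cell limits, a replicate block and each library left out. Doublets were marked with Scrublet in scanpy 1.11.5 and kept. Simulated data took their totals and mean levels from the 94 cells, with 200 genes changed 4-fold and every gene given the same spread between libraries. The fit recovered 88.5% for KO against WT (2170 genes) and 91.0% against other neurons (8302 genes). It recovered 100% against Pomc, Agrp and Tac2 neurons (2693 genes), 98.5% for Ghrh-led against Th-led (821 genes) and 23.0% for the interaction (8302 genes). The fits over the 89 cells were not simulated, so these shares do not apply to them.

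Genes were named by rule: the genes of the selection rule and the markers of these cells, with Mylip, Vldlr and Lrp8; for genotype, up to 15 genes past the threshold per direction by p, or the 6 smallest p per direction where fewer passed; for sets of cells, among called genes with the same direction in every library, the 12 with the largest log2 fold change per direction; and up to 6 members of each gene list with the smallest p. The text gives a selection of these, and some genes that the rule names are not reported here. The cells and lists were chosen with earlier results of these data known. The limit of 0.5% neuronal UMIs and the split into kinds were added after seeing the data. Of the gene symbols, 17085 were in GENCODE M21 (93.9%), used for gene coordinates in GRCm38.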

Additional observations from a re-analysis of the deposited data

Results flagged for a closer look

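A test of the difference between effects (an interaction of genotype and cell set in edgeR's quasi-likelihood test, with library blocked) picked out 307 of 8279 genes whose KO to WT difference was unlike that of other neurons over all 94 cells (3.71%), 303 of them higher. Over the 89 cells with at least 0.5% neuronal UMIs it picked out 7 of 6939 (0.101%), DESeq2 picked out 0, and 254 had an unadjusted p under 0.05. The fits differ by the 5 ependymal-marked cells, all in KO1 and KO2, and by the same limit on other neurons.

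The 7 genes and their log2 differences of effects were Trh 10.01, Oxt 2.69, Avp -1.83, Dbi 2.48, Tac1 -3.29, Ptgds 2.75 and Dbp 4.42. Several rested on 1 cell: all 30 Trh UMIs were in a KO1 cell, 87 of 90 Tac1 UMIs of WT1 were in 1 cell, and 70 of 73 Dbi UMIs and 96 of 107 Ptgds UMIs of KO3 were in the KO3 cell with ependymal genes. Avp and Oxt followed the few vasopressin and oxytocin cells, with 4412, 1693 and 2081 Avp UMIs over WT1 to WT3 and 601, 870 and 1850 over KO1 to KO3. Dbp, a clock-controlled transcription factor, had 1, 0 and 0 UMIs over WT1 to WT3 and 10, 9 and 8 over KO1 to KO3, in 6, 7 and 3 KO cells. Its level in other neurons was 69.2, 80.1 and 74.8 CPM in WT and 91.4, 75.8 and 89.01 in KO.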

How the results depend on the processing

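Counts of called genes moved with the 0.5% neuronal limit, the filter on low counts and single libraries; the limit on neuronal UMIs and the one on Avp and Oxt were chosen after seeing the data, and where no cause is given the cause was not tested. For KO against WT the 94 cells gave 37 calls, 593 with no filter, 0 over the 89 cells, 0 over the 76 without Avp/Oxt-rich cells, 0 at 5 or more rule UMIs and 0 to 477 with 1 library left out. The 89 cells gave 0 calls, 17 with no filter and 0 to 3 with 1 library left out, where without KO3 Avp, Calb1 and Pcsk1 were lower. Within Ghrh-led cells 0 calls became 0 to 1 (Gpx1 without WT3), and within Th-led cells 0 became 1 in DESeq2, 14 with no filter and 0 to 1 with 1 library left out (Cartpt without KO3).

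Against other neurons the 94 cells gave 32 calls, 170 with no filter, 215 over the 89 cells, 131 over the 76, 84 at 5 or more rule UMIs, 177 with neurons of at least 1 neuronal UMI and 16 to 53 with 1 library left out. The 215 were 97 in DESeq2 and 133 to 213 with 1 library left out, and the 131 were 53 and 74 to 161. Against Pomc, Agrp and Tac2 neurons 21 calls became 255 with no filter, 85 over the 89, 64 over the 76 and 10 to 49 with 1 library left out; the 85 became 40 in DESeq2, 217 with no filter and 40 to 105, and the 64 became 35 in DESeq2 and 29 to 94. Ghrh-led against Th-led gave 4 over the 94, 22 in DESeq2, 193 with no filter, 39 over the 89, 35 over the 76, 2 at 5 or more rule UMIs and 2 to 5 with 1 library left out; the 39 became 67 with no filter and 19 to 41, and the 35 became 19 in DESeq2 and 16 to 46. The interaction gave 307, 154 in DESeq2, 508 with no filter, 7 over the 89, 4 over the 76, 0 at 5 or more rule UMIs and 69 to 859 with 1 library left out; the 7 became 0 in DESeq2 and 2 to 10.

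Replicate numbers did not pair the libraries: deviations of same-numbered libraries in neurons correlated at 0.116, -0.094 and 0.121. With a replicate block the 94 cells gave 324 calls between genotypes, the 89 cells 1 (Avp), Th-led cells 2 (Avp and Cartpt), and Slc6a3 over all neurons -0.24.

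Over all neurons, Ghrh (0.10) was -0.0533 under the 0.5% limit, -0.10 with Avp/Oxt-rich cells also out and -0.18 to 0.57 with 1 library left out, Th (0.37) was -0.16 to 0.79, and Slc6a3 (0.03) was -0.0088 without Avp/Oxt-rich cells and -0.99 to 0.47. The KO minus WT share of neurons (0.0892 points) was -0.180 and -0.0239 under the same limits and -0.584 to 0.764, and the difference in median UMIs (505.7) was -647 at 5 or more rule UMIs and -18.7 to 857. Single genes that turned direction against the 94-cell value, besides Avp, Oxt, Pdyn and Pcsk1 (-4.10, -1.47, -1.42 and -1.38 without Avp/Oxt-rich cells, where the limit itself sets Avp and Oxt), were Gad1 at 0.17 without them and -0.46 to 0.0444 with 1 library left out, and Slc32a1 at 0.0949 under the 0.5% limit, 0.34 without Avp/Oxt-rich cells, 0.21 with neurons of at least 1 neuronal UMI, 0.0281 in cells of at least 1000 UMIs and -0.26 to 0.11. For KO against WT, Gal turned to 0.42, 0.17 and, at 5 or more rule UMIs, 0.11, and Ddc to 0.19, 0.0038, 0.34 and -0.73 to 0.15; for Ghrh-led against Th-led, Nnat (-0.17) was -1.12 to 0.47. WT3 holds 4 of the 94 cells, so its sums have the least depth.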

Other observations

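The mitochondrial gene mt-Nd3 had 0 UMIs in every WT library over all barcodes and 618, 1189 and 135 over KO1 to KO3. In the 89 cells it had 8, 10 and 5 UMIs over KO1 to KO3 and 0 in the WT libraries. It was named after its values were seen.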
